A study of Mus musculus with 9 samples.

Results

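The respiratory chain was followed here through the messenger RNA of its subunits in mouse uterus. Members were the protein-coding genes of the mm9 Ensembl annotation whose symbols begin with mt-, Ndufa, Ndufb, Ndufc, Ndufs or Ndufv, with Uqcr, Cox4 to Cox8 or Atp5, together with Sdha to Sdhd and Cyc1. The rule used names and no measured value. It found 106 genes, 93 nuclear and 13 mitochondrial (mt-), among 35934 genes with annotated transcripts, 22245 of them protein-coding. Symbols beginning with Ndufaf and Sdhaf also met the rule, so 6 assembly factors were included, as were 3 genes with Atp5 symbols that encode no core subunit in this grouping (Atp5s, Atp5sl and Atp5l-ps1).

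Libraries of whole uterus RNA were compared, 9 in all and 3 in each of 3 groups. All mice were C57BL/6 females, immature and of no stated genetic modification. Every group, controls included, was primed for 3 days with progesterone, 1 mg once, and β-estradiol at 10 mg/kg per day. The protocol gives an age of 25 days and the design text also gives 21 days for the profiled mice. A volume of 50 µl entered the uterine horns: culture medium that no embryo had touched (control), a pool of medium from 9 developmentally competent human embryos (competent), or a pool from 18 human embryos that were arresting (arrested). The conditioned media were pools and crossed species, and separate animals per library are not stated, so p-values measure only the spread between these libraries, which may be technical. The comparison asks how the uterus differs after exposure to the secretions of competent and of arrested embryos.

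The respiratory chain is built from the products of 2 genomes. Complexes I, III and IV pump protons across the inner mitochondrial membrane as electrons pass from NADH to oxygen, complex II feeds in electrons from succinate without pumping, and ATP synthase (complex V) uses the proton gradient. Core membrane subunits of complexes I, III, IV and V are encoded by mitochondrial DNA and transcribed inside the organelle as long polycistronic RNAs, whereas all of complex II and most other subunits are nuclear genes. In muscle, fat and testis some complex IV subunits occur as tissue isoforms.

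Promoters of nuclear respiratory genes are known for sites of the factors NRF1, of ETS family members such as GABP, and of YY1. Whether such sites had a part in the movement of nuclear members from library to library, described below, was not tested. Promoter windows of RefSeq (GRCm38.p6, 300 bases each) were found for 73 of 92 nuclear symbols, in 78 windows. The NRF1 letters, GCGCA, any base and then GCGC, occurred on either strand in 24.4% of these windows and in 4.60% of all 32851 promoters. The letters CCGGAAG (ETS) occurred in 24.4% against 8.86%, and the YY1 letters, AA, any base and then ATGGCG, in 14.1% against 2.38%. The spellings share no long stretch, and a match is a description of letters, not a bound site. The 120 bases before the start of 5 members are given 5′ to 3′ on the gene's strand with matches in capitals. Sdha had 3 NRF1 matches, Ndufb4 had 2, Sdhd and Cox6a1 each had an NRF1 and an ETS match, and Atp5j had a YY1 and an ETS match.
Sdha (chr13:74350241-74350360, minus): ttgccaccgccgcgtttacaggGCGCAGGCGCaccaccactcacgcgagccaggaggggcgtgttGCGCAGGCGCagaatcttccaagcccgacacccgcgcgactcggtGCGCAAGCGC
Ndufb4 (chr16:37654369-37654488, minus): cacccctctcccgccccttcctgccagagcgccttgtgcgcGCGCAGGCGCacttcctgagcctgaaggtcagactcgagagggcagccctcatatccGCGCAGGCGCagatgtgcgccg
Sdhd (chr9:50603850-50603969, minus): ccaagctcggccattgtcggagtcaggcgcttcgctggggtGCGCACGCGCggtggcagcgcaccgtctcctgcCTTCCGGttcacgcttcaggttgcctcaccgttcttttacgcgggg
Cox6a1 (chr5:115348959-115349078, minus): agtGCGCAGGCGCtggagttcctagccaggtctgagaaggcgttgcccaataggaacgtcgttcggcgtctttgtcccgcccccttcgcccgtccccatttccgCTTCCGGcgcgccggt
Atp5j (chr16:84834977-84835096, minus): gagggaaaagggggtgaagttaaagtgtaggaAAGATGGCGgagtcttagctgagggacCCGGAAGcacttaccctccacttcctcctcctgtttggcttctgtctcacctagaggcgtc

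Values are FPKM, fragments scaled to transcript length and to the mapped total of the library, summed over the annotated transcripts of a gene. Depth in reads is unknown. Coverage times length over annotated transcripts came to 1077 to 1972 Mb per library. Differences are of log2(FPKM + 1) with a pseudocount of 1, ± SE, which understates changes of low genes. Of the 106 members 88 were tested, 84 nuclear and 4 mitochondrial, in a limma fit of all 12609 genes that passed the filters. A mean of at least 1 FPKM was required. Genes listed at 0 in 1 to 4 libraries with a median over 5 FPKM were left out as failed estimates. Genes listed at 0 in more libraries, such as mt-Cytb, stayed in if their mean reached 1 FPKM. Across genes, which are not independent replicates, libraries correlated at 0.894 to 0.935 within groups and 0.893 to 0.932 between groups. The uterine homeobox genes Hoxa10 and Hoxa11 were above 0 in all 9 libraries, at 29.8 to 79.5 and 19.2 to 50.9 FPKM, and the estrogen-induced Ltf stood at 1137 to 3431 FPKM. The steroid receptor genes Pgr and Esr1 were listed at 0 in 6 and 8 libraries, zeros of the kind described below for members. Libraries of the arrested group stood apart from each other in composition: summed markers of smooth muscle were 887 FPKM in arrested 1 and 1225 to 2805 in the other 8, and summed adipocyte markers were 1360 FPKM in arrested 2 and 1.42 to 170 in the other 8.

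No respiratory chain gene passed the threshold in any comparison. By limma with Benjamini-Hochberg adjustment over all genes, 0 of 84 nuclear and 0 of 4 mitochondrial members were called at an adjusted p under 0.05 for arrested minus competent, where 0.127% of all genes were called. The same counts of 0 and 0 were found for competent minus control (0.0397% of all genes) and for arrested minus control (0.0397%), and for the F test over the 3 groups (0.103%). At an unadjusted p under 0.05 the nuclear counts were 6, 1 and 6 of 84, beside 11.4%, 5.46% and 5.44% of all genes, and the mitochondrial counts were 1, 1 and 4 of 4. The 1 in competent minus control, and 1 of the 4 in arrested minus control, was mt-Cytb, through values listed at 0. The smallest adjusted p of any member was 0.187, for Ndufaf2 in arrested minus competent.

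Of the 4 mitochondrial messages with values, mt-Co3, mt-Co2 and mt-Co1, the mitochondrially encoded core of cytochrome c oxidase, ranked 2, 3 and 5 of all genes by mean FPKM. The fourth was mt-Cytb, the cytochrome b of complex III, with values in 4 libraries. Together the mt- messages made up 5.88 to 8.57% of protein-coding FPKM, and the 93 nuclear members 2.73 to 3.38%.

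mt-Co1 (chrMT:5328-6872), the catalytic subunit with the heme and copper center, stood at 13523, 13193 and 11505 FPKM in controls 1 to 3, at 12718, 14100 and 15618 in the competent libraries and at 21473, 16197 and 18638 in the arrested libraries. All 3 arrested values lay above all 6 others. The arrested minus control difference was 0.55 ± 0.15 (limma adjusted p = 0.869) and arrested minus competent was 0.40 ± 0.15 (adjusted p = 0.370). Competent minus control was 0.15 ± 0.15, with overlapping groups.

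mt-Co2 (chrMT:7013-7696), which receives electrons from cytochrome c, was at 16896, 17372 and 13874 FPKM in controls, 15784, 19528 and 20284 in competent and 25760, 17551 and 21299 in arrested libraries. The arrested group was above the controls but overlapped the competent group through arrested 2. mt-Co3 (chrMT:8607-9390), the third core subunit, was at 17142, 18258 and 13668 FPKM in controls, 15424, 19140 and 19764 in competent and 29345, 19815 and 21017 in arrested libraries. For mt-Co3 the 3 arrested libraries were again the highest, arrested 2 by a narrow margin over competent 3. Arrested minus control was 0.41 ± 0.18 for mt-Co2 (limma adjusted p = 0.902) and 0.50 ± 0.19 for mt-Co3 (adjusted p = 0.869). Against the competent group the differences were 0.21 ± 0.18 and 0.36 ± 0.19. Non-overlap with the arrested group higher than control was seen for 3.53% of all genes, and higher than competent for 7.84%, so the 3 mt-Co genes shared a direction without passing the test. Non-overlap was counted on FPKM as deposited. Scaled to the sum of non-mitochondrial genes, arrested 2 fell below control 2 for mt-Co2, and below competent 3 for mt-Co1 and mt-Co3. The mean differences kept their sign under every scaling tried, with a range of 0.31 to 0.59 for arrested minus control. The size rested in part on arrested 1: without it arrested minus competent was 0.30 for mt-Co1, 0.07 for mt-Co2 and 0.18 for mt-Co3, and arrested minus control was 0.45, 0.28 and 0.33. Without competent 1, mt-Co2 differed by 0.10 between arrested and competent. Scaled to the sum of non-mitochondrial genes it differed by 0.13.

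**Figure D1:**
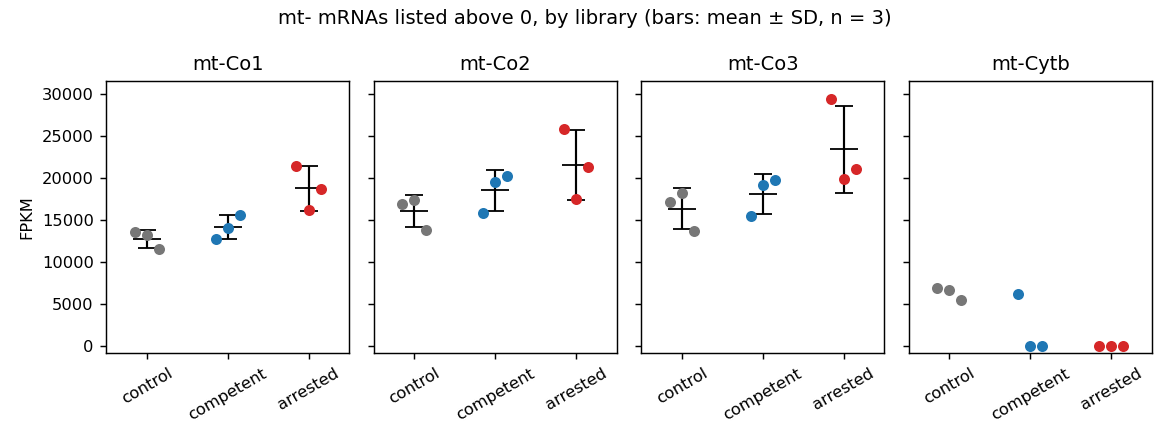
FPKM of the mitochondrial messages listed above 0, one point per library in the order 1 to 3, for the control, competent and arrested groups; bars are mean ± SD (n = 3), not drawn for mt-Cytb. The arrested libraries lie above all controls for mt-Co1, mt-Co2 and mt-Co3, and mt-Cytb is listed at 0 in 5 libraries.

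mt-Cytb (chrMT:14145-15288) was listed at 6886, 6751 and 5469 FPKM in controls and at 6227 in competent 1, and at 0 in the other 5 libraries. A listed 0 can be a failed estimate in these files. The other 9 mitochondrial genes, mt-Nd1 to mt-Nd6 with mt-Nd4l for complex I and mt-Atp6 and mt-Atp8 for ATP synthase, were listed at 0 in all 9 libraries, although every cell with mitochondria uses them. The rRNA gene mt-Rnr2 was also listed at 0 throughout, and mt-Rnr1 had values of 214 to 460 FPKM in 4 libraries and 0 in 5. No direction was read from any of these zeros. mt-Co1, mt-Co2 and mt-Co3 had 1, 2 and 1 near-identical copies elsewhere in the genome, with identities up to 97.6%, 100% and 100%, so reads may have been divided between them.

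The nuclear members had medians near 0 in each comparison. Medians over the 84 tested were -0.02 for arrested minus competent, 0.01 for competent minus control and -0.00 for arrested minus control, beside -0.00, -0.01 and -0.02 over all genes tested. The numbers of members higher and lower were 38 and 46, then 46 and 38, then 42 and 42, where 48.9%, 48.1% and 47.1% of all genes were higher. Differences beyond 0.5 were found in 10.7%, 5.95% and 7.14% of nuclear members and in 23.5%, 18.1% and 18.6% of all genes. The set of all genes was not matched to the members by level. When FPKM were scaled to the sum of non-mitochondrial genes, the median of all genes shifted to -0.11 for arrested minus control and -0.08 for arrested minus competent. The nuclear members then stood at 21 higher and 63 lower, and at 23 higher and 61 lower, with medians of -0.11 and -0.10 that moved with that shift.

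**Figure D2:**
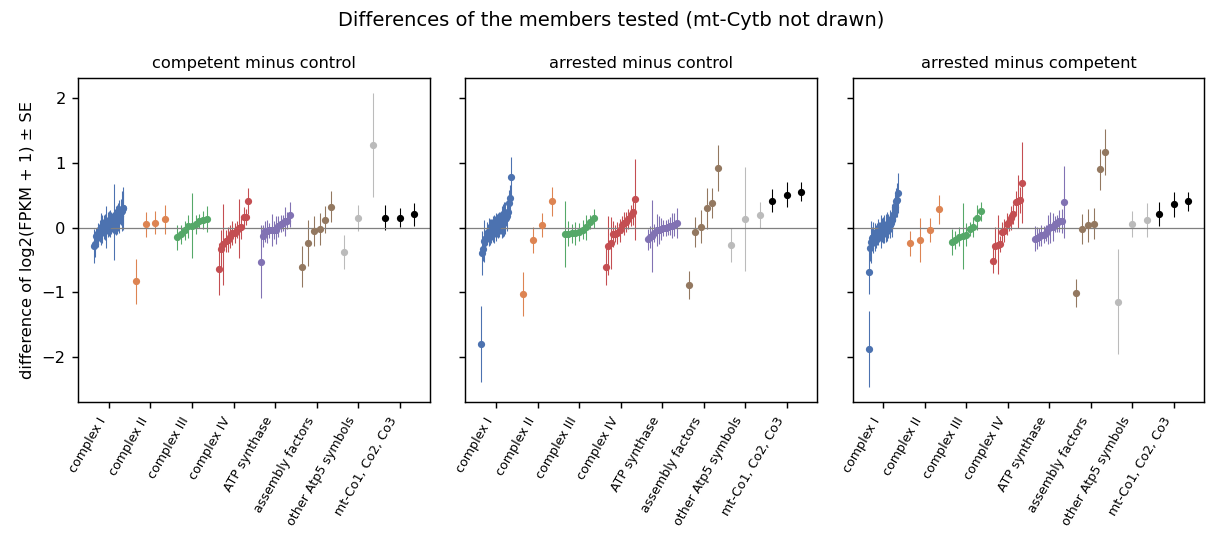
Difference of log2(FPKM + 1) ± SE for each tested member by complex, in the 3 comparisons; mt-Cytb is not drawn. Most nuclear members lie near 0, and the 3 mt-Co genes lie above 0 in each panel.

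The nuclear members moved together over single libraries. Their median log2 deviation from the mean of the 9 libraries was 0.28 in arrested 1, -0.09 in arrested 2 and -0.23 in arrested 3, a wider span than among the controls (0.09, 0.06 and -0.13) or the competent libraries (-0.05, 0.05 and 0.02). Of the 84 genes, 53 had their highest value in arrested 1, against 17.1% of all genes, and 34 their lowest in arrested 3, against 19.7%. Summed over the tested nuclear members, FPKM were 23877, 23753 and 20789 in controls, 21586, 23244 and 22467 in competent and 28271, 21592 and 19771 in arrested libraries. The highest and the lowest sums therefore both belonged to the arrested group. The FPKM sum of non-mitochondrial genes, relative to the average library, was also highest in arrested 1, at 1.21, beside 0.88 to 1.15 in the other libraries. As a share of protein-coding FPKM, all nuclear members together were at 3.21% in arrested 1, under 3.38% in competent 2 and 3.29% in control 2. That share was lowest in arrested 3, at 2.73%. The part of the library total was not tested. Without arrested 1 the nuclear medians became -0.18 for arrested minus competent and -0.14 for arrested minus control; without arrested 2 and 3 they became 0.28 and 0.29.

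Other values moved with these libraries, and their part was not tested. Summed smooth muscle markers (10 of 10 genes found) ran from 1639 to 1736 FPKM in controls, 1436 to 2805 in competent and 887 to 2189 in arrested libraries, lowest in arrested 1. Stromal markers (8 of 8) summed to 1317 FPKM in arrested 1 and 1516 to 2508 in the other 8, and endothelial markers (4 of 4) to 13.6 and 16.7 to 40.8. Epithelial markers (9 of 9) went the other way, at 3269 FPKM in arrested 1 and 2242 to 3194 in the other 8, lowest in arrested 2. Their median deviation in arrested 1 was 0.10, under 0.18 in competent 1. Blood markers (5 of 5, led by the globin genes) ran from 937 to 1500 FPKM in controls, 747 to 3966 in competent and 2091 to 4842 in arrested libraries, so all arrested libraries lay above all controls, as for the 3 mt-Co genes. Adipocyte markers (8 of 8) ran from 4.15 to 113, 1.42 to 170 and 1.65 to 1360 FPKM in the same order. Genes with transcripts under 1000 bases that are not members, 830 of them tested, had a median deviation of 0.28 in arrested 1, as the nuclear members did, and of 0.03 and -0.10 in arrested 2 and 3. Genes of mitochondrial protein import and of the mitochondrial ribosome, lists given at the end, had median deviations of 0.27 and 0.23 in arrested 1. In whole tissue, fewer cells of a type and less RNA per cell cannot be told apart.

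**Figure D3:**
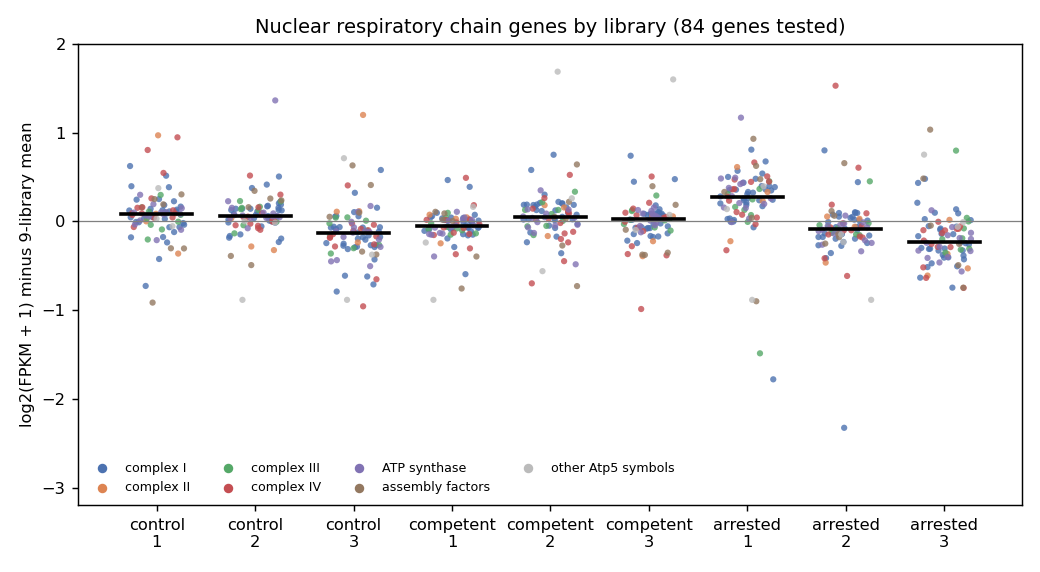
Deviation of each of the 84 tested nuclear members from its own mean over the 9 libraries, as log2(FPKM + 1), with the median as a black line. The medians of arrested 1 (0.28) and arrested 3 (-0.23) lie farthest from 0, on opposite sides.

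The ratio of mitochondrial to nuclear messages was highest on average in the arrested group. The sum of mt-Co1, mt-Co2 and mt-Co3 was 1.96, 2.02 and 1.84 times the nuclear sum in controls, 2.01, 2.23 and 2.46 times in competent and 2.67, 2.44 and 3.04 times in arrested libraries. Arrested libraries all lay above the controls, while arrested 2 lay just under competent 3 and competent 1 within the range of the controls. With mt-Cytb counted where listed, the log2 ratio was 1.14 ± 0.07 in control, 1.22 ± 0.07 in competent and 1.44 ± 0.16 in arrested libraries (mean ± SD, n = 3). The arrested minus control difference was 0.48 over the 3 mt-Co genes and 0.29 with mt-Cytb, whose zeros all fell outside the controls. The ratio is a summary over members and was not tested.

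Levels differed widely between complexes, compared per length as FPKM. Medians of the mean FPKM, over all members with zeros kept, were 126 for complex I, 175 for complex II, 248 for complex III, 205 for complex IV and 387 for ATP synthase, and 14.2 for the assembly factors. On protein-coding transcripts alone they were 106, 144, 121, 188 and 349, and 12.8, so the order of the complexes changed with the gene value. By summed value the highest member of each was Ndufa4 at 889 (grouped with complex I by symbol, although its product is now placed with complex IV), Sdhc at 253, Uqcrh at 749, Cox7b at 2220 and Atp5b, the catalytic beta subunit, at 1603. For 15 of the 88 nuclear members with values, coding transcripts held under 0.5 of the summed value. Cox7b's value rested on a processed transcript of 180 bases at 1836 to 2786 FPKM, with the coding transcript at 97.7 to 143, and Atp5b's on one of 343 bases at 975 to 1371, with the coding transcript at 292 to 393. On coding transcripts Cox6c at 1073 and Atp5e at 791 were the highest of complexes IV and V. The lowest with values were Ndufs8 at 12.7, Sdhb at 110, Uqcrfs1, the Rieske iron-sulfur protein, at 76.5, Cox6a2 at 0.27 and Atp5f1 at 132. Among assembly factors Ndufaf1 was highest at 23.7 and Ndufaf3 lowest at 12.1.

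**Figure D4:**
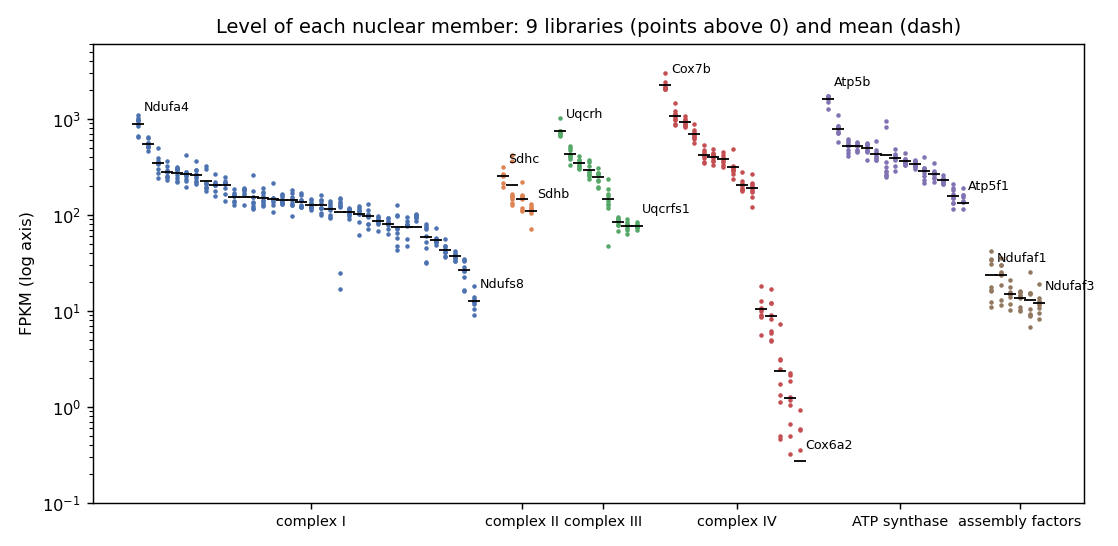
FPKM on a log axis of every nuclear member of the 5 complexes and of the assembly factors, ordered by mean within each; points are libraries above 0 and dashes are means over 9 libraries. Complex IV spans the widest range, from Cox6a2 to Cox7b, whose summed value rests on a noncoding transcript of 180 bases.

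Within groups the nuclear members varied less than all genes at the median. The median within-group SD was 0.246 on the log2 scale, beside 0.334 for all genes and 0.260 for genes of like level, and 78 of 84 members were under 0.5. Uqcrfs1 was the tightest, with an SD of 0.067 and values of 69.5 to 83.7 FPKM over the 9 libraries. Atp5s was the widest, with an SD of 1.09 and 5 libraries listed at 0.

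Complex I takes electrons from NADH, and 34 of its 39 nuclear members were tested. Their medians were -0.03, 0.05 and 0.02 for arrested minus competent, competent minus control and arrested minus control. Ndufa6, an accessory subunit, was at 196, 261 and 251 FPKM in controls, 267, 234 and 226 in competent and 421, 281 and 282 in arrested libraries. All arrested values were above the rest, by 0.46 ± 0.19 over control (limma adjusted p = 0.888) and 0.41 ± 0.19 over competent (adjusted p = 0.457). Ndufs4, an accessory subunit needed for a stable complex, showed the same order at 48.5 to 53.5, 52.1 to 53.1 and 55.5 to 72.1 FPKM. Ndufb6 was at 42.6 to 71.2 in controls and 72.6 to 125 in arrested libraries, a difference of 0.78 ± 0.31 (adjusted p = 0.886), and at 46.8 to 97.5 in competent libraries, which overlapped both. A second coding transcript of 480 bases was listed in arrested 2 and 3 only, at 50.9 and 42.3 FPKM. On the main transcript arrested minus control was 0.27, with arrested 3 at 57.4 beside control 3 at 57.2, and without arrested 2 and 3 it was 0.37.

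Ndufa12, an accessory subunit, was at 119 to 149 FPKM in 7 libraries and at 24.9 and 16.7 in arrested 1 and 2. The low values came from 1 transcript. A retained-intron transcript of 428 bases was listed at 96.1 to 123 FPKM in those 7 libraries and at 0 in arrested 1 and 2, whereas the coding transcript lay between 16.7 and 27.7 everywhere. The fitted difference was -1.88 ± 0.59 for arrested minus competent (limma adjusted p = 0.330) and -1.79 ± 0.59 for arrested minus control (adjusted p = 0.869). With transcripts assembled in each library added, it became -0.08 and 0.00047. Without arrested 3 it was -2.71 and -2.62, at adjusted p-values of 0.0026 and 0.0033.

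Of the other complex I members, Ndufs5 and Ndufv3 had the smallest p in competent minus control, at 0.17 ± 0.13 and -0.25 ± 0.20. Ndufs1, the largest subunit of the electron input module, was listed at 0 in all libraries, as were Ndufa4l2 and the second gene model named Ndufb8 (ENSMUSG00000091471). Ndufa13 was listed at 0 in competent 3 and arrested 3 and at 86.5 to 102 FPKM in the other 7. Ndufb10 was listed at 0 in competent 3 and at 128 to 190 FPKM elsewhere. Both were left out of the test as failed estimates.

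Complex II, succinate dehydrogenase, is also an enzyme of the citric acid cycle and has no mitochondrial gene. Sdha, its flavoprotein, was at 361, 147 and 423 FPKM in controls, 155, 164 and 157 in competent and 157, 133 and 127 in arrested libraries. Controls 1 and 3 stood above everything else and control 2 did not. Those 2 libraries alone listed a retained-intron transcript of 438 bases, at 240 and 308 FPKM, and the coding transcript was at 115 to 164 FPKM in all 9. Competent minus control was -0.83 ± 0.34 (limma adjusted p = 0.908) and arrested minus control -1.02 ± 0.34 (adjusted p = 0.869). On the coding transcript alone they were 0.32 and 0.13, with the opposite sign. Without control 2 the summed values were called, at -1.30 and -1.49 (adjusted p = 0.049 and 0.027).

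Sdhb, the iron-sulfur subunit, was at 71.0 to 128 FPKM with arrested 3 lowest and arrested 1 highest. Sdhc and Sdhd, the membrane anchors, were at 195 to 316 and 109 to 220 FPKM, also highest in arrested 1. Arrested minus control was -0.19 ± 0.20 for Sdhb, 0.04 ± 0.18 for Sdhc and 0.41 ± 0.22 for Sdhd, whose groups overlapped.

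**Figure D5:**
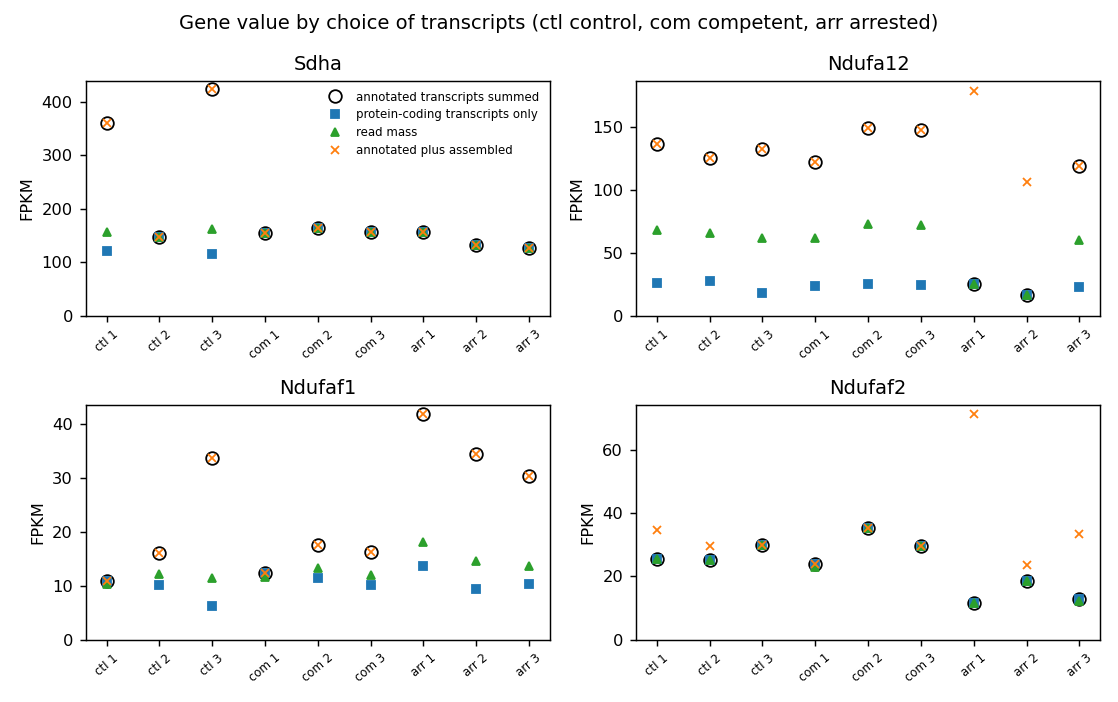
FPKM by library of Sdha, Ndufa12, Ndufaf1 and Ndufaf2 when annotated transcripts are summed (open circles), when only protein-coding transcripts are summed, by read mass (FPKM times length over the longest length), and with assembled transcripts added. The 2 high Sdha controls and the 2 low Ndufa12 arrested libraries are absent from the coding transcripts.

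Complex III passes electrons from ubiquinol to cytochrome c, and all 9 nuclear members were tested. Uqcrh, the hinge protein, was at 722 to 748 FPKM in controls, 668 to 709 in competent and 713 to 1018 in arrested libraries, and arrested minus competent was 0.25 ± 0.14 (limma adjusted p = 0.561). Cyc1, cytochrome c1, was at 63.4 to 89.4, 77.3 to 83.6 and 68.9 to 76.0 FPKM, so the arrested group lay under the competent group, by -0.14 ± 0.14. Uqcrc1, a core protein, and Uqcrfs1 were higher in all competent libraries than in all controls, by 0.12 ± 0.14 and 0.10 ± 0.11. For Uqcrfs1 the margin was narrow, 75.29 FPKM in competent 1 over 75.25 in control 3. Uqcrc2, the other core protein, was at 47.4 FPKM in arrested 1 and 117 to 235 elsewhere. Its coding transcript was at 32.2 to 95.9 FPKM, and 2 noncoding transcripts were each listed at 0 in part of the libraries.

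Complex IV reduces oxygen, and 14 of its 17 nuclear members were tested. Cox5a was at 176, 185 and 154 FPKM in controls, 209, 265 and 213 in competent and 198, 120 and 172 in arrested libraries. The competent group was above both others, with arrested minus competent at -0.51 ± 0.20 (limma adjusted p = 0.379) and competent minus control at 0.41 ± 0.20 (adjusted p = 0.924). Cox6c was lower in competent 1 and 3, at 858 and 873 FPKM, than in the other libraries, at 959 to 1469. Arrested minus competent for Cox6c was 0.39 ± 0.16 (adjusted p = 0.413).

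Where both kinds were among the members, the isoforms usual outside muscle, fat and testis were far above the others. Cox6a1 averaged 376 FPKM and the muscle isoform Cox6a2 0.27, with 5 libraries listed at 0. Cox6b1 averaged 691 and the testis isoform Cox6b2 8.86. Cox7a2 and Cox7a2l, the latter a supercomplex factor, averaged 205 and 311, and the muscle form Cox7a1 averaged 10.4. Cox8a averaged 402 and the muscle and brown fat form Cox8b 2.35, highest at 7.35 FPKM in arrested 2, the library with the high adipocyte markers. Cox7b2 and Cox8c were listed at 0 throughout, beside the coding transcript of Cox7b at 97.7 to 143. Cox4i2, the form known from lung and low oxygen, was at 0.32 to 2.27 FPKM. No gene named Cox4i1 was among the members, so the forms of this subunit could not be compared.

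None of the isoform genes passed the test. Cox7a1 was at 8.72 to 18.2 FPKM in controls, 9.08 to 10.7 in competent and 5.55 to 10.3 in arrested libraries, and arrested minus control was -0.61 ± 0.28 (limma adjusted p = 0.902). Cox6a1 was at 379 to 449 FPKM in competent and 314 to 366 in arrested libraries, which did not overlap, a difference of -0.26 ± 0.12 (adjusted p = 0.477). Cox7a2l was higher in arrested than competent libraries on average, by 0.42 ± 0.20, but the groups overlapped. Cox4i2 had a competent minus control difference of -0.64 ± 0.40 at these low levels.

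ATP synthase makes ATP at its catalytic head, and 14 of 15 members were tested. No member had groups that did not overlap in any comparison. Of all genes, 7.84% did not overlap as higher and 8.87% as lower in arrested minus competent. The shares were 6.81% and 8.09% in competent minus control, and 3.53% and 5.35% in arrested minus control. Whether the absence among these 14 genes departs from those shares was not tested. Atp5b, by its summed value, was at 1483 to 1712, 1607 to 1722 and 1267 to 1671 FPKM in control, competent and arrested libraries, and arrested minus competent was -0.15 ± 0.13. The 3 genes of the membrane c ring, Atp5g1, Atp5g2 and Atp5g3, averaged 158, 338 and 387 FPKM and differed by -0.04 ± 0.24, -0.01 ± 0.12 and 0.03 ± 0.19 for arrested minus control. Atp5h, a stalk subunit, and Atp5k, a membrane subunit, were at -0.18 ± 0.16 and -0.15 ± 0.17. Atp5o, in the stalk, was at 938 FPKM in control 2 and 820 in arrested 1 and at 246 to 353 in the other 7, on 1 coding transcript. Atp5f1 was listed at 0 in competent 1 and at 115 to 191 FPKM elsewhere, and was left out as a failed estimate.

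The smallest p of any member in arrested minus competent belonged to an assembly factor. Ndufaf2, which acts in the assembly of complex I, was at 25.6, 25.0 and 29.9 FPKM in controls, 23.8, 35.3 and 29.6 in competent and 11.5, 18.6 and 12.9 in arrested libraries. All arrested values were below all others, by -1.01 ± 0.21 against competent (limma adjusted p = 0.187) and -0.89 ± 0.21 against control (adjusted p = 0.713). With transcripts assembled in each library added, arrested 1 rose to 71.2 FPKM and the differences were 0.38 and 0.28, of opposite sign.

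Ndufaf1, another complex I assembly factor, was at 10.9, 16.2 and 33.8 FPKM in controls, 12.3, 17.6 and 16.3 in competent and 41.8, 34.4 and 30.4 in arrested libraries. Arrested minus competent was 1.16 ± 0.35 (limma adjusted p = 0.322) and arrested minus control 0.91 ± 0.35. A noncoding transcript of 291 bases was listed at 20.0 to 28.2 FPKM in control 3 and the 3 arrested libraries and at 0 in the other 5. On coding transcripts alone arrested minus competent was -0.03. Ndufaf4 was at 6.81 to 8.96 FPKM in competent, 9.22 to 15.4 in control and 10.4 to 25.5 in arrested libraries, with arrested minus competent at 0.90 ± 0.32 (adjusted p = 0.364). A coding transcript of 360 bases was listed in arrested 3 only, at 13.3 FPKM. Another, of 673 bases, was listed at 0 in competent 2 and at 3.71 to 8.45 FPKM elsewhere. Ndufaf3, Sdhaf1 and Sdhaf2 overlapped in all comparisons.

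Counted over all nuclear members, groups did not overlap for 5 higher and 6 lower in arrested minus competent, beside 7.84% and 8.87% of all genes. The counts were 3 and 3 in competent minus control, beside 6.81% and 8.09%, and 3 and 3 in arrested minus control, beside 3.53% and 5.35%. The 2 comparisons with control share the control libraries, and those with arrested or competent share these.

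Lists of other mitochondrial genes also had no call. Of the import machinery 14 of 15 genes were tested, of the mitochondrial ribosome 74 of 77, of further assembly factors 18 of 23, of biogenesis and mitochondrial DNA transcription 14 of 16, and of carriers, porins and uncouplers 9 of 11. By limma, adjusted counts were 0 in both directions for each list in each comparison. Of all genes 0.127%, 0.0397% and 0.0397% were called, so counts of 0 do not set these lists apart. At an unadjusted p under 0.05 the counts for arrested minus competent, competent minus control and arrested minus control were 1, 1 and 1 for import, 2, 3 and 0 for the ribosome, 0, 0 and 0 for assembly factors, 1, 0 and 1 for biogenesis and 0, 1 and 0 for carriers. In the same order, 11.4%, 5.46% and 5.44% of all genes were under that p. Esrra, the nuclear receptor that drives respiratory genes, was at 29.1, 33.5 and 21.3 FPKM in controls, 25.5, 30.7 and 25.9 in competent and between 17 and 18.7 in arrested libraries. All arrested values were below all others, by -0.60 ± 0.18 against control (limma adjusted p = 0.869) and -0.58 ± 0.18 against competent (adjusted p = 0.321). Tfam, which packages and transcribes mitochondrial DNA, differed by 0.31 ± 0.15 for arrested minus control (adjusted p = 0.902). The import genes Tomm20 and Timm17a had arrested differences of 0.50 ± 0.18 over control and 0.43 ± 0.19 over competent, and the mitoribosomal Mrpl17 a competent minus control difference of 0.42 ± 0.14 (adjusted p = 0.819). Medians over the mitoribosomal list were -0.01, 0.04 and 0.04 in the 3 comparisons.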

How the data were processed

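RNA of whole uterus was sequenced in 9 libraries. Per the submitters' processing notes, reads were handled with Bowtie 0.12.2 and Cufflinks on mm9, with options not stated in them. The authors deposited FPKM per transcript and the coverage signal over each transcript. Columns of control 1, which had no header line, were taken by the order in the other libraries. Of 92839 annotated transcripts per library, 98.9% matched GENCODE vM1 (NCBIM37) in position, while up to 1356 were absent from it and not used. From these files gene values were summed over annotated transcripts (Python 3.11.15, pandas 2.3.3). Of 13333 genes averaging 1 FPKM or more, 724 listed at 0 in 1 to 4 libraries with a median over 5 FPKM were left out as failed estimates, without use of groups. The other 12609 entered a fit by limma 3.58.1 (R 4.3.3) of log2(FPKM + 1), with a mean trend, 3 contrasts and an F test, and Benjamini-Hochberg adjustment at 0.05. Tested on simulated data for arrested minus competent over 12609 genes, it found 44.7% of the genes changed by log2 1 and 85.0% of those changed by log2 2, with a mean of 11.3 false calls. The simulation had 3 runs with independent normal errors and no filter, and changes were placed only in genes of higher level. Deviations shared by the genes of a library and failed estimates were not simulated, so recovery in these data may be lower. Near-identical copies are genome matches of member transcripts at 95% identity over 80% of the length (minimap2 2.31); 24 members had one. Members and lists were chosen with earlier results of these data known. Named were all mt- members, per complex the 2 smallest p in each comparison, isoform sets, complex II, Cyc1, the highest and lowest level per complex, members left out, and up to 3 genes per list; genes named for non-overlapping groups or divided transcripts were chosen after their values were seen. Alternatives covered the pseudocount, filters, scaling, gene value, prior, replicate block and leaving out libraries.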

Additional observations from a re-analysis of the deposited data

How the results depend on the processing

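No member was called in any of the 26 alternatives except as named here. Ndufa12 was called without arrested 3, Sdha without control 2, and mt-Cytb without competent 1, where its zeros follow the groups. Leaving out 1 library, counts of called members ran from 0 to 1 for nuclear members in each comparison and from 0 to 1 for mt- members in both comparisons with control. Counts of all genes called ran from 6 to 41 for arrested minus competent (16 with all libraries), 0 to 12 for competent minus control (5; the 0, without competent 2, had 461 at an unadjusted p under 0.05), 3 to 14 for arrested minus control (5) and 5 to 26 for the F test (13). Without arrested 2 and 3, chosen after seeing the data, with the lone arrested library assumed to vary like the other groups, 189 genes (2 nuclear members, Ndufa12 and Uqcrc2) were called for arrested minus competent, 54 (1 member, Ndufa12) for arrested minus control and 60 by the F test. Nuclear medians there were 0.28 and 0.29, and mt- medians 0.61 and 0.76. Without arrested 1 the mt- medians were 0.18 and 0.33. In these fits the filter left out mt-Cytb, so the mt- medians cover mt-Co1 to mt-Co3 alone. The mt- medians with all libraries, 0.28 and 0.46, include mt-Cytb with its zeros and are not comparable. For mt-Co3, the middle of the mt-Co genes, the differences with all libraries were 0.36 and 0.50. With assembled transcripts the gene counts were 28 for arrested minus competent and 3 for competent minus control. For competent minus control they were 9 with no filter, 3 at a mean of at least 5 FPKM, 8 with failed estimates left out by group, 3 with the top transcript, 3 with coding transcripts and 1 by read mass. For arrested minus control they were 8 with no filter, 3 with the top transcript, 3 among protein-coding genes and 1 with coding transcripts. The F test gave 8 with the top transcript and 6 with coding transcripts. Coding transcripts and read mass were also chosen after seeing the data, as was the log2 ratio over mt-Co1 to mt-Co3 alone, at 0.20 for competent minus control and 0.48 for arrested minus control. Signs reversed for Sdha (0.32 on top or coding transcripts and 0.032 by read mass for competent minus control, 0.13 on top or coding transcripts for arrested minus control), Ndufaf1 (-0.031 on coding transcripts, arrested minus competent), Ndufaf2 (0.38 and 0.28 with assembled transcripts, against competent and control) and Ndufa12 (0.00047 with assembled transcripts, arrested minus control). The causes of the changed gene counts were not tested.

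The replicate numbers gave no pairing: same-numbered libraries of different groups correlated in their deviations at -0.06 to 0.10, and others at -0.09 to 0.08. With a replicate block the gene counts were 4 for arrested minus competent, 0 for competent minus control (limma; 715 at an unadjusted p under 0.05), 3 for arrested minus control and 3 by the F test, and no member was called. Depth in reads is unknown, which limits what can be said of members near 1 FPKM.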
